A study of Mus musculus with 8 samples.

Results

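Expression of 10 genes of the CREB pathway was examined: the transcription factors Creb1, Crem and Atf1, the CREB-regulated coactivators Crtc1, Crtc2 and Crtc3, the nuclear receptors Nr4a1, Nr4a2 and Nr4a3, and the kinase Sik1. They were listed by name as the pathway of CBP and p300, the proteins whose genes were knocked out, and every array probe whose accession mapped to one of these symbols was taken. This gave 17 of the 55681 non-control probes on the array and 10 of its 20145 named genes. Of these probes 15, from 9 genes, were well above background on at least 4 arrays and were tested. The only Nr4a3 probe and 1 of 3 Crem probes were too dim.

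RNA came from extensor digitorum longus (EDL), a fast-twitch muscle of the lower hindlimb, of male C57BL/6 mice. The PCKO group held 4 mice with an inducible knockout, limited to skeletal muscle, of both p300 (Ep300) and CBP (Crebbp), although the genotype field names CBP alone. The WT group held 4 wildtype mice. Tamoxifen was gavaged for 5 days, beginning when the mice were 13 to 15 weeks old, and muscle was taken on the following day after a 4 h fast. The labels word this treatment for the PCKO mice and attach the same text to the WT mice, so that tamoxifen exposure of the WT mice is not certain from them, and the labels used here do not name the transgene that drives the deletion. If the deletion is limited to skeletal muscle, as labelled, cells of other kinds in the tissue keep both genes, which was not checked here. Arrays were single-colour, 1 for each mouse.

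CREB, the product of Creb1, binds DNA at cyclic AMP response elements, as do its close relatives CREM and ATF1. When protein kinase A phosphorylates CREB, the acetyltransferases CBP (CREB-binding protein) and p300 are recruited to it. The CRTC proteins form another arm: salt-inducible kinases such as SIK1 hold them in the cytoplasm, and the phosphatase calcineurin releases them to join CREB on DNA. The NR4A receptors are orphan nuclear receptors whose genes, like Sik1, are textbook targets of CREB, and which in skeletal muscle are induced by adrenergic signals and exercise and are linked to glycolytic genes.

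Values below are log2 spot intensities minus the 75th percentile of the same array, in log2 units, and differences are means over PCKO arrays less means over WT arrays, ± the limma standard error (4 mice per group). Adjusted p-values are limma's, Benjamini-Hochberg adjusted over all 24867 tested probes, with a threshold of 0.05. Arrays had 24179 to 25669 probes well above background (43.4% to 46.1%), no spot was saturated, and arrays correlated at r = 0.988 to 0.991 within a group and 0.916 to 0.930 between groups. Much of the array differed between the groups: 35.1% of tested probes were higher in PCKO muscle and 30.2% lower. Relative to 7 spike-in control probes the 75th percentile itself was -2.54 ± 0.34 in PCKO and -3.20 ± 0.30 in WT arrays (SD, n = 4 each), a difference of 0.66 (two-sided exact permutation p = 0.029, which 4 against 4 arrays cannot go below). Centring on the spike-ins therefore raises a difference between the groups by 0.66 wherever all arrays enter it. Gaps between probes or genes do not move. With this centring 52.8% of probes were higher and 9.6% lower. All changes here are relative to the other transcripts on the array, and a direction that turns under spike-in centring is named with it.

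Markers of the labelled tissue were present, since all 8 skeletal muscle fibre genes listed (Acta1, Ckm, Myh4, Myh1, Tnnt3, Actn3, Des and Mb) were well above background on every array. All 8 fell in PCKO muscle, and their summed scaled intensity was 1023 to 1277 on PCKO arrays and 4187 to 5276 on WT arrays. The fall of Myh4 (-0.63) was smaller than the 0.66 that spike-in centring adds, and so were several among the markers below, such as Pecam1 (-0.39). Markers of other cells in the tissue were lower or did not pass the test, apart from the Schwann cell gene Mbp, which rose. The sums were 14.1 to 21.8 in PCKO and 22.6 to 24.5 in WT for 6 endothelial genes (0 higher, 5 lower), 9.60 to 19.02 and 23.4 to 30.0 for 5 macrophage genes (0 higher, 4 lower), and 178 to 243 and 351 to 432 for 5 fibroblast genes (0 higher, 5 lower). The 4 smooth muscle and pericyte genes were all lower, with sums of 21.4 to 31.6 in PCKO and 37.6 to 49.9 in WT. No tested neutrophil (3), adipocyte (3) or T and B cell gene (1) passed, 1 of 4 Schwann cell genes was higher and 1 lower, and of 3 satellite cell genes 1 was lower. In whole muscle, fewer cells of a type and less RNA per cell cannot be told apart, and the part of these shifts in the results below was not tested.

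Of the 15 tested probes, 7 were higher in PCKO muscle, 1 was lower and 7 did not pass the threshold. Over the whole array 35.1% of probes were higher and 30.2% lower, so the count of higher members by itself says little about them. In 6 the groups did not overlap with PCKO higher, and in 1 with PCKO lower, while over all tested probes 32.6% and 27.6% were separated in these directions. Their median difference was 0.26, and that of all tested probes was 0.05. Counted by each gene's brightest probe, Crtc1, Crtc2, Crtc3, Nr4a1 and Nr4a2 were higher and none of the 9 genes was lower, where 38.8% of all named genes were higher and 30.8% lower at their brightest probes. The call of Creb1 as lower came from its dimmer probe, A_55_P2114427. In WT the mean of this probe (-1.855) was level with that of the other, A_52_P517730 (-1.854). In PCKO it was dimmer (-2.381 against -2.053). It thus ranked as the dimmer probe because of its own fall, and the absence of lower genes in this count depends on that ranking.

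**Figure D1:**
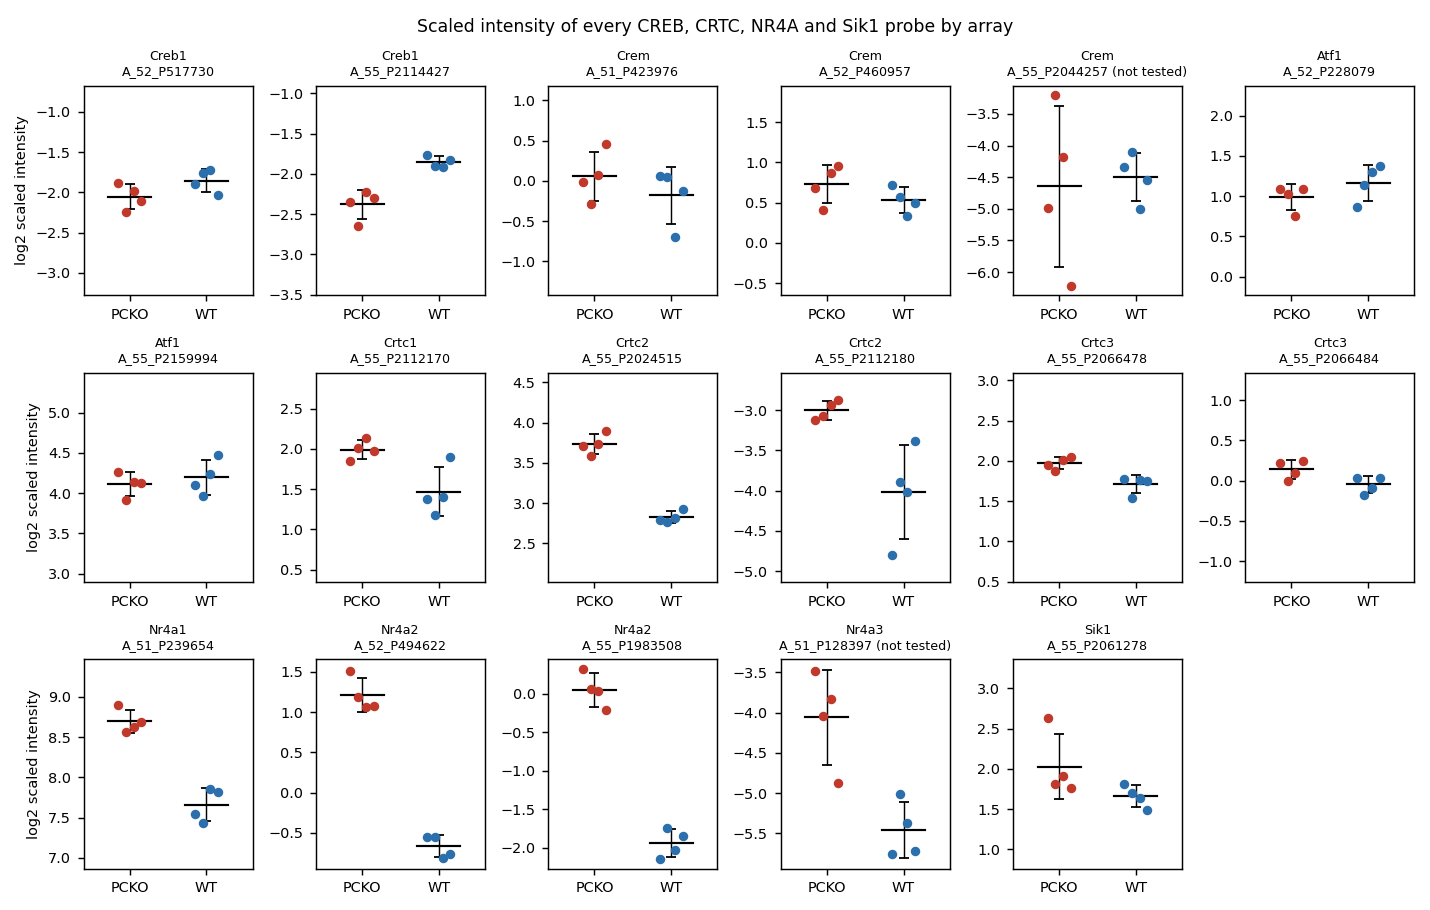
Scaled intensity (log2 units, y axis) of each of the 17 probes on every array, PCKO in red and WT in blue, with the group mean and SD as lines. Panels have y axes of their own, since levels of different probes are not comparable. The PCKO and WT points stand apart for Crtc2, Nr4a1 and both Nr4a2 probes and mingle for Crem, Atf1 and Sik1.

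The genes of the 2 targeted coactivators are given first. Crebbp had 3.49, 3.36, 3.49 and 3.35 on the PCKO arrays and 4.34, 4.08, 4.11 and 3.85 on the WT arrays, a difference of -0.67 ± 0.11 (adjusted p = 0.000765). Ep300 had -1.66, -1.37, -1.54 and -1.66 in PCKO and -0.33, -0.17, 0.08 and -0.13 in WT, a difference of -1.42 ± 0.11 (adjusted p = 9.995e-06). Every PCKO array was below every WT array for both genes, but with spike-in centring the difference of Crebbp was -0.02 and lost its call, while that of Ep300 was -0.76. The position of either probe with respect to the deleted exons is not known here, so these values do not check the deletion.

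The CREB family of DNA-binding factors showed 1 call among 6 tested probes. Creb1, the founding member, had 2 probes that gave different answers. Probe A_55_P2114427 read -2.35, -2.65, -2.22 and -2.31 in PCKO and -1.76, -1.90, -1.92 and -1.83 in WT, a difference of -0.53 ± 0.11 (adjusted p = 0.0024), or 1.44-fold lower. Probe A_52_P517730 read -1.88, -2.24, -1.99 and -2.11 in PCKO and -1.90, -1.76, -1.72 and -2.03 in WT, and its groups overlapped (difference -0.20 ± 0.11, adjusted p = 0.14, 95% interval -0.45 to 0.05). The differences of the 2 probes were 0.33 apart (exact permutation test, two-sided, p = 0.029, adjusted p = 0.12 over 13 such comparisons of probes and genes). This p is the smallest that 4 against 4 arrays allow, and after adjustment a comparison could pass only if at least 8 of the 13 reached it, as 3 did, so a gap that does not pass here is not shown to be absent. Both are annotated to the same transcript. The fall of Creb1 is also bound to the scaling, since with spike-in centring its probes read 0.13 and 0.46, neither past the threshold.

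Crem, whose transcripts encode both activators and the cyclic AMP-induced repressor ICER, did not pass at either tested probe. Probe A_52_P460957 ranged over 0.41 to 0.96 in PCKO and 0.34 to 0.72 in WT (difference 0.20 ± 0.14, adjusted p = 0.23, 95% interval -0.12 to 0.52). For A_51_P423976 the ranges were -0.29 to 0.45 in PCKO and -0.69 to 0.06 in WT (difference 0.24 ± 0.21, adjusted p = 0.34, 95% interval -0.24 to 0.71). The third Crem probe, A_55_P2044257, was well above background on 1 PCKO and 1 WT array and gives no level. With spike-in centring both tested probes passed as higher, at 0.86 and 0.89. Atf1, the third family member, spanned 3.91 to 4.27 in PCKO and 3.96 to 4.48 in WT at probe A_55_P2159994 (difference -0.08 ± 0.13, adjusted p = 0.59, 95% interval -0.38 to 0.21). Its probe A_52_P228079 spanned 0.75 to 1.09 in PCKO and 0.86 to 1.37 in WT (difference -0.18 ± 0.13, adjusted p = 0.27, 95% interval -0.48 to 0.13). The intervals of both Atf1 probes leave room for modest changes in either direction, and neither direction was stable, reading 0.57 and 0.48 with spike-in centring.

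All 3 CRTC coactivators rose at their brightest probes, Crtc2 the most. Crtc2 at A_55_P2024515 read 3.72, 3.58, 3.74 and 3.89 in PCKO and 2.79, 2.76, 2.82 and 2.93 in WT. The lowest PCKO array lay well above the highest WT array, and the difference was 0.91 ± 0.09 (adjusted p = 3.95e-05), or 1.87-fold. A dim second probe, A_55_P2112180, read -3.12, -3.08, -2.94 and -2.87 in PCKO and -4.80, -3.89, -4.01 and -3.38 in WT (difference 1.02 ± 0.26, adjusted p = 0.0081). It was well above background on only 2 WT arrays, and with a normexp background correction it read -0.22 and lost its call, whereas the bright probe then read 1.08.

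Crtc1, the form best known from brain, read 1.85, 2.01, 2.14 and 1.97 in PCKO and 1.38, 1.18, 1.41 and 1.90 in WT. The fourth WT mouse overlapped with the PCKO arrays, and the difference was 0.52 ± 0.15 (adjusted p = 0.015), or 1.44-fold. Crtc3 at A_55_P2066478 read 1.95, 1.88, 2.01 and 2.05 in PCKO and 1.78, 1.54, 1.76 and 1.75 in WT, a separated but small difference of 0.26 ± 0.09 (adjusted p = 0.025). Its second probe, A_55_P2066484, ran from -0.01 to 0.25 in PCKO and from -0.17 to 0.04 in WT (difference 0.19 ± 0.09, adjusted p = 0.11). The call of Crtc3 was near the threshold. The difference was 0.25 without PCKO mouse 3 (adjusted p = 0.061), 0.24 without PCKO mouse 4 (adjusted p = 0.070) and 0.21 without WT mouse 2 (adjusted p = 0.061), each of which lost the call with 1 array fewer in the fit. Set against each other by their brightest probes, Crtc2 exceeded Crtc3 by 0.64 in its difference (exact permutation test, two-sided, p = 0.029, adjusted p = 0.12) and Crtc1 by 0.38 (exact p = 0.057, adjusted p = 0.15), the first of these again at the smallest p allowed. Crtc1 and Crtc3 differed by 0.26 (exact p = 0.14, adjusted p = 0.31).

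Nr4a2 and Nr4a1 carried the largest differences among the 9 tested members at their brightest probes. Their promoters are shown because CREB half-sites sit densely in them. The windows are the 250 bases before the RefSeq start of each gene on GRCm38.p6, printed on the gene's strand, with each half-site (TGACG, or CGTCA where it reads on the other strand) in capitals. Nr4a1 lies at chr15:101266596-101266845 on the plus strand, Nr4a2 at chr2:57124004-57124253 on the minus strand and Nr4a3 at chr4:48045055-48045304 on the plus strand.
Nr4a1: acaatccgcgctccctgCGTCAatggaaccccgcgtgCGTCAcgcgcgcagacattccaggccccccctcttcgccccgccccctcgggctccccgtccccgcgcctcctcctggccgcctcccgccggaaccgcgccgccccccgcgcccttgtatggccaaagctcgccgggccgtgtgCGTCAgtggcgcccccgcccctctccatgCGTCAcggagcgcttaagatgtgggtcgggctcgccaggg
Nr4a2: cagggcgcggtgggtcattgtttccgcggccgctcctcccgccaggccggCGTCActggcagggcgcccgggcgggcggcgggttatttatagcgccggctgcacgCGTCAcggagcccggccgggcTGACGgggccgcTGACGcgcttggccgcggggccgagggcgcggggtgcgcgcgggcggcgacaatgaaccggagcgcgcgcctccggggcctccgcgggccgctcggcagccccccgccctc
Nr4a3: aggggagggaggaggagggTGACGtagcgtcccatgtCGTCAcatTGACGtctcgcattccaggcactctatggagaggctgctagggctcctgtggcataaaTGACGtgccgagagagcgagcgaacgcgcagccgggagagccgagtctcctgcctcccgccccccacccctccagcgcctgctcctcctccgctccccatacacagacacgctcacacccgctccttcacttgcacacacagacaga

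Each of the 3 windows held 4 half-sites, a count reached by 45 of 32851 promoter windows of the same length (0.137%). In Nr4a1 the sites began 233, 213, 69 and 40 bases before the start, in Nr4a2 200, 144, 123 and 111 bases, and in Nr4a3 231, 213, 205 and 147 bases. None of them formed the full palindrome TGACGTCA, which would count as 2 half-sites and is present in 1.55% of windows. Nor did any hold AAAGGTCA, the response element of NR4A receptors themselves (searched on both strands and present in 1.34% of windows). Of the other members with a window, Atf1 had 1 half-site, 90 bases before its start, and Creb1, Crtc1 and Crtc3 had none, where 17.8% of all windows hold at least 1. Crem, Crtc2 and Sik1 were not in the table of windows. These matches are letters in a window and not measured binding.

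**Figure D2:**
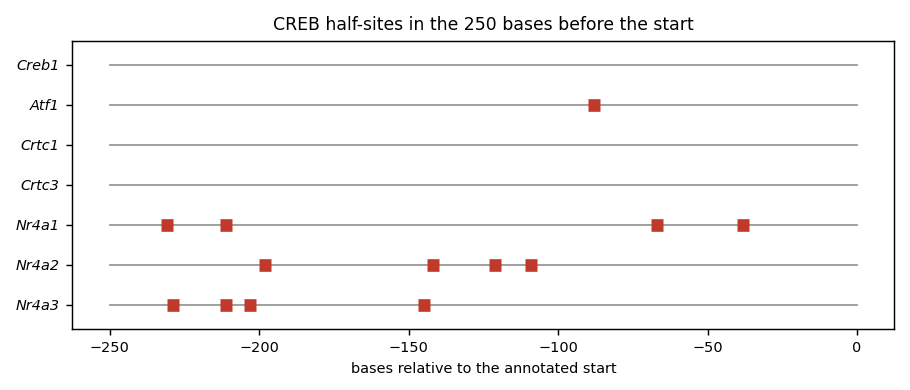
Positions of CREB half-sites (red squares, both strands) in the 250 bases before the annotated start of the 7 genes with a window, with distance from the start in bases on the x axis. Nr4a1, Nr4a2 and Nr4a3 hold 4 each, Atf1 holds 1 and the other 3 hold none.

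Nr4a1 (Nur77), the NR4A receptor of working muscle, was higher in PCKO. It read 8.90, 8.56, 8.63 and 8.69 in PCKO and 7.54, 7.43, 7.85 and 7.81 in WT. The groups were separated by a wide gap, with a difference of 1.04 ± 0.12 (adjusted p = 0.000126), or 2.05-fold. This probe read 1.57 with quantile normalization, 1.31 with normexp background correction and 1.65 in the deposited values, each still past the threshold.

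Nr4a2 (Nurr1), best known from dopamine neurons, showed the largest difference of all member probes in the main fit. Probe A_52_P494622 read 1.52, 1.19, 1.07 and 1.08 in PCKO and -0.55, -0.55, -0.81 and -0.76 in WT (difference 1.88 ± 0.12, adjusted p = 3.57e-06), or 3.68-fold. Probe A_55_P1983508 read 0.32, 0.07, 0.04 and -0.21 in PCKO and -2.15, -1.75, -2.04 and -1.84 in WT (difference 1.998 ± 0.14, adjusted p = 4.40e-06), or 3.99-fold. Both probes placed all PCKO arrays more than a log2 unit above all WT arrays. Of all tested probes 3.08% and 2.55% had a more positive difference, a share that leaves out probes with larger falls. With normexp background correction the first probe read 1.40 and the second 1.08, on either side of Nr4a1 (1.31). In the deposited values the second probe read 1.47, below Nr4a1 (1.65), and the first was not among the tested probes. All of these values still passed, but the order of Nr4a2 and Nr4a1 depends on the processing. With the main scaling the difference of Nr4a2 exceeded that of Nr4a1 by 0.84 (exact permutation test, two-sided, p = 0.029, adjusted p = 0.12), likewise at the smallest p allowed.

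Nr4a3 (NOR-1) was near the limit of the array. Its probe, printed as 10 spots, read -3.49, -4.04, -3.84 and -4.88 in PCKO and -5.75, -5.00, -5.36 and -5.72 in WT. The groups did not overlap, but all 10 spots were well above background on the first PCKO array, 2 on the second and none on the other two, against 0, 1, 1 and 0 spots on the WT arrays. It was therefore not tested in the main fit and no fold is given.

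Sik1, the kinase that restrains CRTC proteins, read 2.63, 1.82, 1.91 and 1.76 in PCKO and 1.82, 1.70, 1.64 and 1.49 in WT. The first PCKO mouse stood above the others, and the groups otherwise met (difference 0.37 ± 0.19, adjusted p = 0.12, 95% interval -0.07 to 0.80). Without that mouse the difference was 0.17. The same mouse was the highest PCKO array for all 5 NR4A and Sik1 probes. Leaving it out, Nr4a1 differed by 0.97 and the Nr4a2 probes by 1.78 and 1.91, all past the threshold. With spike-in centring Sik1 passed as higher, at 1.02.

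Results were also read within each of the 2 slide rows, which held 2 arrays of each group. Nr4a1 differed by 1.25 in row 1 and 0.83 in row 2, the brighter Nr4a2 probe by 1.90 and 1.86, the other by 2.14 and 1.85, and the bright Crtc2 probe by 0.87 and 0.94, all past the threshold. The calls of Crtc3 were lost in both rows, and those of Creb1, Crtc1 and the dim Crtc2 probe in row 2. Crem differed in direction between the rows. Its probe A_52_P460957 read -0.10 in row 1 and 0.50 in row 2, where it passed as higher (adjusted p = 0.045). Its probe A_51_P423976 read -0.20 and 0.67, with no call in either row.

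**Figure D3:**
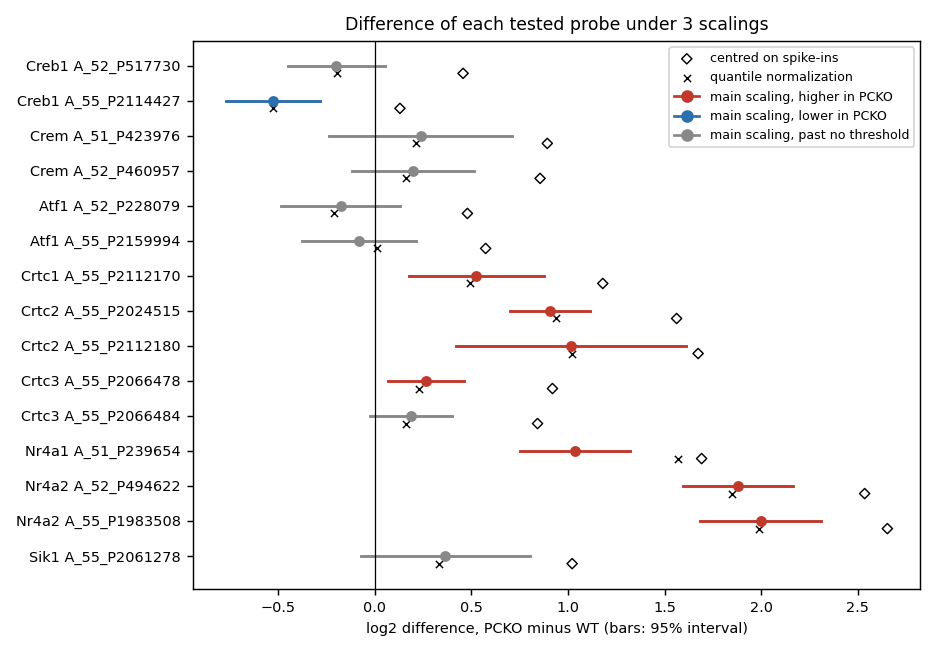
Log2 difference, PCKO minus WT (x axis), of the 15 tested probes with 95% intervals from the limma fit, and the same difference under quantile normalization (crosses) and spike-in centring (diamonds). The tested probes of Nr4a2, Nr4a1, the CRTC genes, Crem and Sik1 lie to the right under the 3 scalings shown. Creb1 and Atf1 cross 0 with spike-in centring, and Atf1 A_55_P2159994 also with quantile normalization (0.011).

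Named genes whose profile over the 8 arrays was most like that of Nr4a2 at A_55_P1983508 were Mcrip1 (r = 0.998), Dock1, Brms1l, Cmas and Triqk (r = 0.996 each). All 5 were higher in PCKO, by 0.85 for Mcrip1, 1.83 for Dock1, 1.13 for Brms1l, 0.60 for Cmas and 2.76 for Triqk. The 8 arrays fall into 2 separate groups, so r here describes a shared difference between groups.

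The 8 gene lists around the pathway were read at each gene's brightest tested probe. Of all 12738 named genes tested this way, 38.8% were higher and 30.8% lower, with a median difference of 0.08. The lists are described by counts and medians only, and no median changes with Fhl3 or Junb, given below as bounds, placed at its bound. Both genes count as called in their lists, although each passed the filter only through the group where it was higher.

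Among relatives of CREB and ATF1, 8 of 14 tested were higher and 4 lower (median 0.45). With spike-in centring 10 were higher and 0 lower (median 1.11), and in slide row 2 alone 2 were higher and 3 lower. Atf3, a stress-induced factor, read 3.31, 4.41, 2.98 and 2.53 in PCKO and -0.48, -0.10, 0.49 and 0.82 in WT, a difference of 3.13 ± 0.42 (adjusted p = 0.000248). Creb3, which is anchored in the endoplasmic reticulum, rose by 0.88 ± 0.07 and Atf5, a factor of the mitochondrial stress response, fell by 0.92 ± 0.08. The fall of Atf5 lost its call with spike-in centring (-0.26).

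Coactivators and corepressors of CREB, a list that includes both targeted genes, had 5 higher and 9 lower of 19 (median -0.39). With spike-in centring there were 7 higher and 3 lower, and the median turned to 0.27. Cited2, which competes for a domain of CBP and p300, read -0.76, -0.38, -0.98 and -1.15 in PCKO and 2.03, 2.20, 1.98 and 1.42 in WT, a difference of -2.73 ± 0.21. Its relative Cited1 went the other way, at 1.90 ± 0.16, or 1.13 with normexp correction. Fhl3, a LIM-domain coactivator of muscle, was well above background on every WT array and no PCKO array. In the main processing it was at least 9.12-fold lower. It passed the filter through the WT arrays alone, so its call adds nothing to this bound. The measured difference of Fhl3 was -1.47 with normexp correction and -1.62 in the deposited values, both smaller than this bound. The bound therefore holds for the main processing only. For the bound each PCKO array entered at its own value or at the weakest signal that counted as well above background on it, whichever was higher.

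Upstream lie the genes that make, carry or remove the cyclic AMP signal. Receptors, G proteins and cyclases had 5 higher and 10 lower of 19 (median -0.53). The adenylyl cyclases Adcy2 and Adcy7 fell by 1.77 ± 0.10 and 1.22 ± 0.16. Protein kinase A, its anchors and other effectors had 5 higher and 9 lower of 24 (median -0.20). In that list Pkia, the muscle inhibitor of protein kinase A, fell by 2.69 ± 0.09, the anchor Akap6 by 1.97 ± 0.09 and Popdc3, a cyclic AMP-binding membrane protein, by 1.93 ± 0.10. Phosphodiesterases, which degrade the signal, had 2 higher and 9 lower of 13 (median -0.64). Pde4b read -1.46, -1.22, -0.92 and -1.23 in PCKO and 1.23, 1.501, 1.68 and 2.15 in WT, a difference of -2.85 ± 0.20. Pde7a fell by 2.43 ± 0.14, and Pde4dip, an anchor for phosphodiesterases, by 1.93 ± 0.12 at its brightest probe, although its 3 called probes ran from -1.93 to 1.47. With spike-in centring Adcy7 lost its call (-0.56), and the medians of these 3 lists turned to 0.13, 0.45 and 0.02, with 2, 3 and 4 members lower.

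Kinases, phosphatases and binding proteins that act on CREB or CRTC proteins had 8 higher and 14 lower of 30 (median -0.23). With spike-in centring 10 were higher and 3 lower, and the median turned to 0.43. Camk2a, a calcium-dependent kinase, read -0.69, -0.74, -0.26 and -0.84 in PCKO and 2.93, 2.89, 2.75 and 2.77 in WT, a difference of -3.46 ± 0.13. Ppp3ca, a catalytic subunit of calcineurin, fell by 1.61 ± 0.10, and Rps6ka4 (MSK2), a kinase of CREB, rose by 1.45 ± 0.11. The sister kinases of Sik1, chosen for mention after their values were seen, read -0.25 ± 0.09 for Sik2 and -0.27 ± 0.10 for Sik3. Those small differences passed the threshold here but turned to 0.41 and 0.38 with spike-in centring. Both lost their calls with normexp correction, without the filter on dim probes, in each slide row alone and when several single mice were left out. Sik3 read -0.0021 under quantile normalization (adjusted p = 0.99) and -0.13 on the deposited scale (adjusted p = 0.33), again with no call.

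Genes known elsewhere to respond to CREB went both ways, with 5 higher and 7 lower of 20 (median -0.32, turning to 0.34 with spike-in centring). Ppargc1a (PGC-1alpha), the coactivator of mitochondrial genes, read 5.90, 6.10, 5.97 and 6.12 in PCKO and 3.44, 3.50, 3.24 and 3.14 in WT. That was a separated difference of 2.69 ± 0.11 (adjusted p = 2.07e-07), or 6.46-fold. Junb, an early response factor, was well above background on every PCKO and no WT array. In the main processing it was at least 3.29-fold higher. It passed the filter through the PCKO arrays alone, so its call adds nothing to this bound. With normexp correction Junb read 0.24 and lost its call, and in the deposited values it read 0.999. Both values are smaller than the bound, which therefore holds for the main processing only. Fos varied within both groups, from -1.98 to 0.39 in PCKO and from -2.05 to 0.14 in WT (difference -0.27 ± 0.65, adjusted p = 0.73), and read 0.39 with spike-in centring. Odc1, the first enzyme of polyamine synthesis, fell by 2.95 ± 0.10. Pde4b belongs to this list too.

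Of 17 tested partners of the NR4A receptors and genes linked to them in muscle, 14 fell, 3 did not pass and none rose, with a median of -2.48, or -1.82 with spike-in centring. Under other settings 1 of the 3 passed as higher. It was Rxrb, a partner receptor, with quantile normalization (0.23) and in the deposited values (0.22), and Ucp2, a mitochondrial uncoupling protein, with spike-in centring (0.74), both named after their values were seen. Fbp2, the muscle fructose bisphosphatase, read -1.52, -1.66, -1.61 and -1.95 in PCKO and 3.73, 3.80, 4.11 and 4.35 in WT, a difference of -5.68 ± 0.16. Prkag3, the muscle subunit of AMP-activated kinase, differed by -4.75 ± 0.12, or -2.63 with normexp correction, and Pgam2, the muscle phosphoglycerate mutase, by -3.53 ± 0.14. Many genes of this list are muscle fibre genes of glucose use, and the fibre markers above were lower on the same arrays. The part of that shift in the falls of this list was not tested.

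**Figure D4:**
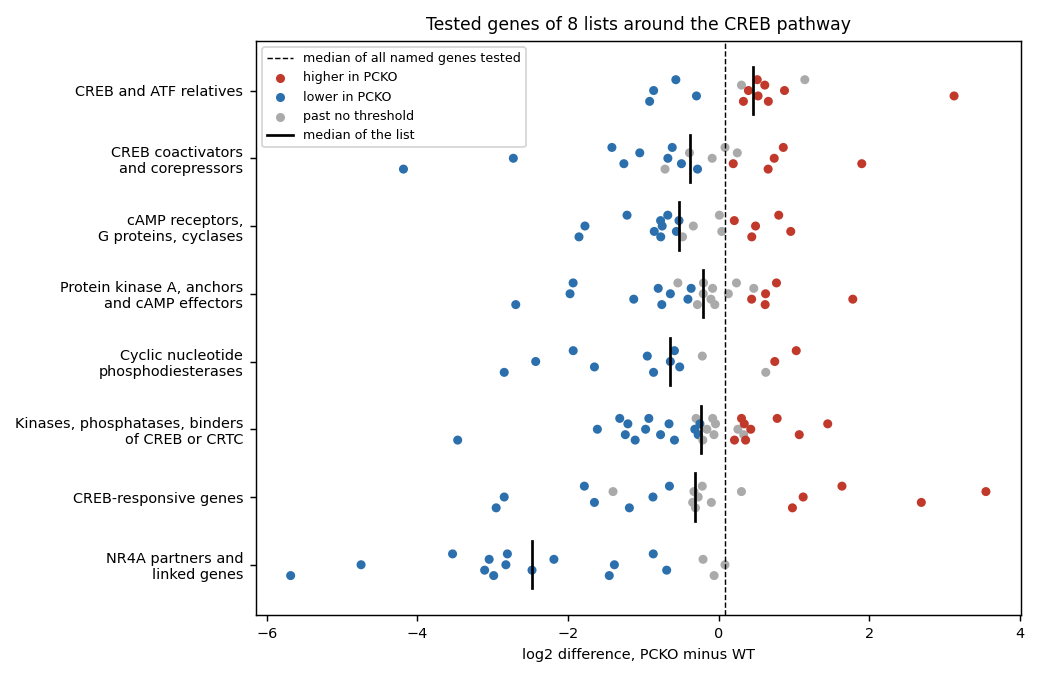
Log2 difference, PCKO minus WT (x axis), of each tested gene of the 8 lists, 1 point per gene at its brightest probe, coloured by the limma call, with the list median as a bar and the median of all named genes (0.08) dashed. The NR4A-linked list lies almost wholly to the left, and the relatives of CREB and ATF lie mostly to the right.

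Promoter half-sites were also counted for all tested named genes with a window. Of 7130 genes without a half-site, 38.2% were higher and 32.1% lower in PCKO (median 0.06). Of 3013 with at least 1, 42.9% were higher and 24.7% lower (median 0.18), and of 155 with at least 3, 49.0% and 21.3% (median 0.27). The 300 genes with the full TGACGTCA site had 48.3% higher and 24.3% lower (median 0.26), where all 10143 genes with a window had 39.6% and 29.9%. The median G and C content of the windows was 59.2% without a half-site, 60.4% with at least 1, 62.5% with at least 3 and 60.4% with the full site. Its part in these shares was not tested.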

How the data were processed

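Expression was measured in EDL muscle of 4 PCKO and 4 WT mice on 1 slide of Agilent single-colour mouse arrays. The scanner files hold spot intensity values that the authors made with Feature Extraction 10.7.3.1, which subtracted background and removed spatial trends within arrays, per the file headers. The deposited series table holds log2 values. Over 6027 bright probes every column matched the log2 intensity of its array (lowest r 0.9997, at most 0.995 with another array), so its scale is log2 intensity, and column medians were 5.45 to 5.52. How it was normalized and whether background was subtracted are not given in the sources used here, and it served as an alternative.

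Spots flagged as outliers and control spots were left out and spots of 1 probe averaged. Processed intensity was taken as log2 and scaled to each array's 75th percentile. A probe was tested where well above background on at least 4 of 8 arrays, meaning in at least 50% of its spots. The comparison used the lmFit and eBayes functions of limma 3.58.1 (R 4.3.3), two-sided and tested on simulated data, and with exact permutation tests in scipy 1.17.1 for single values. An array spot flagged as an outlier was dropped for that probe, which touched 84 of 24867 tested probes. The number of arrays limits the precision.

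Accessions were matched without version to RefSeq (GRCm38.p6). Of 55681 probes, 26582 matched 1 symbol, none matched several and 29099 had none. Promoter windows came from RefSeq on GRCm38.p6, for 7 of the 10 genes. The array was designed on an older build, so no probe positions are given.

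The members and lists were chosen with earlier results of these data known. Named genes are all members and both targeted genes, Ppargc1a, Fos and Junb. They also include the 3 largest passing differences with separated groups of each list, and the 5 profiles most like the member probe with the largest difference. A gene that this rule takes is not reported here.

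Same-numbered mice were checked for pairing. Their deviations from the group means correlated at 0.058, 0.089, 0.041 and 0.015, so the numbers were not treated as pairs.

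Alternatives were quantile, median and spike-in scaling, other filters, kept outlier spots, normexp correction (offset 50), the deposited values, 1 probe per gene, an intensity trend, slide row and replicate number as blocks, each row alone, and each mouse left out.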

Additional observations from a re-analysis of the deposited data

Results flagged for a closer look

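One member value stood apart from its group. Crtc3 at probe A_55_P2066478 read 1.54 in WT mouse 2, and its gap to the nearest other WT array was 0.906 of the whole WT range, above Dixon's 95% critical value for a group of that size. All other WT arrays lay between 1.75 and 1.78. Of 34 groups of 4 arrays examined this was the only one, and chance alone flags about 1 in 20. Without this mouse the difference of Crtc3 was 0.21 and lost its call (adjusted p = 0.061).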

How the results depend on the processing

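Over 22 alternatives, 319 values of the 17 probes were recomputed. Of these 291 kept direction and side of the threshold, 12 turned direction, 10 lost a call without turning and 6 gained one. The 291 include 1 value each of Nr4a3 and the third Crem probe, which had no main test and kept direction and size only. Of the 12 that turned, 2 also lost a call, Creb1 A_55_P2114427 with spike-in centring and the dim Crtc2 probe with normexp correction. Nr4a1, both Nr4a2 probes and the bright Crtc2 probe kept direction and call in every alternative run on them, with adjusted p of at most 0.011 for Nr4a1 and Crtc2 and 0.0043 for Nr4a2. The replicate number as a block left 7 member probes higher and 1 lower, with 8485 probes higher and 7452 lower over the array, against 8727 and 7501 without it. It changed no member call, and 3 of 4 PCKO arrays correlated best with the WT array of their own number, a hint from the data only.

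With spike-in centring 11 member probes were higher and 0 lower, and 13137 probes higher and 2388 lower over the array. Creb1 read 0.46 and 0.13, Atf1 0.48 and 0.57, Sik2 0.41, Sik3 0.38 and Fos 0.39. List medians turned for coactivators (0.27), receptors and cyclases (0.13), protein kinase A (0.45), phosphodiesterases (0.015), kinases and phosphatases (0.43) and CREB-responsive genes (0.34). With normexp correction 2 member probes were lower, Creb1 A_52_P517730 passing at -0.33, while Atf1 A_55_P2159994 read 0.14 and the dim Crtc2 probe -0.22. Under quantile normalization that Atf1 probe read 0.011. The deposited values, which hold 14597 tested probes and 9 member probes, gave 5370 higher and 4022 lower, with 3 member probes higher and a coactivator median of 0.012. With named genes alone, 5046 were higher, 4017 lower and 0 members lower, that fit holding 1 probe per gene by construction.

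Slide row 1 alone gave 5737 higher probes, with Crem at -0.20 and -0.10, the Atf1 probes at 0.058 and 0.060 and Fos at 1.08. Row 2 alone gave 5667 higher and 0 member probes lower, and Fos passed at -1.62. Without the filter Crtc1 (adjusted p = 0.052) and Crtc3 (adjusted p = 0.11) lost their calls. Nr4a3, tested only there, passed as higher, as did 14% of all probes in that fit. Its probe was well above background on 1 PCKO and no WT array, so the call rests mostly on readings near background. The third Crem probe did not pass (-0.14). Leaving out 1 mouse at a time, 6 to 7 member probes were higher and 1 lower. The Atf1 probe A_55_P2159994 then ran from -0.16 to 0.012 (turning without WT mouse 4) and Fos from -0.76 to 0.10 (turning to 0.015 without PCKO mouse 3 and 0.10 without PCKO mouse 4), and without PCKO mouse 2 the count of higher phosphodiesterases was 1. With normexp correction Crebbp read -0.43 and Triqk 1.52, and Atf5 read -0.57 with quantile normalization and in the deposited values. Among 34 other named genes, 700 of 732 values kept direction and call. The cause of these changes was not tested, except that fits with fewer arrays or probes have less to test. Signal over background limits Nr4a3, the third Crem probe and the dim Crtc2 probe.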
